A study of Mus musculus with 168 samples.

Results

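A set of 9 genes of lipid carriage and export was followed in single astroglial cells of the old mouse brain. They are Apoe, Clu, Apod, Abca1, Abcg1, Lrp1, Lcat, Mfge8 and Htra1, taken as a list of 9 among 42405 measured genes and not picked by a threshold. All 9 are in the tables, and 8 of them had a mean of at least 10 TPM (transcripts out of 1000000, a level corrected for transcript length) in striatum or SVZ cells. Apod did not.

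Smart-seq2 libraries were made from 150 single cells of male C57BL/6 mice, a method that reads whole transcripts of 1 cell at a time. Striatum gave 13 astrocytes and somatosensory cortex gave 4, both from mice of 25 months and sorted as GLAST-positive cells negative for CD45 and O4. The SVZ (subventricular zone, the stem cell niche beside the lateral ventricle) gave 68 and 65 cells in 2 column series, labelled as old neural stem cells and sorted for CD133 and GLAST and against CD45 and O4. Their labels state an age of 23 months, where their protocol states 22. Tissue of 3 to 4 mice was pooled for the astrocytes and of 4 mice for the SVZ cells, and cells were picked by hand. No cell is tied to an animal, so each region counts as 1 sample, SDs are spreads over cells, and no test between regions was possible. Age, gate and region cannot be told apart in any comparison of astrocytes with SVZ cells. The column names hold the series ogp (68) and ogp2 (65) for SVZ cells, and OGStr (11) and OStr (2) for striatum cells. What these names mean is not stated, so values are also given within them.

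Astrocytes are the main makers of lipoproteins in the brain. They secrete particles built on ApoE and clusterin, the transporters ABCA1 and ABCG1 load cholesterol and phospholipid onto them, LCAT esterifies the cholesterol, and receptors such as LRP1 on neurons and glia take the particles up. MFG-E8 bridges phosphatidylserine on dying cells to integrins of engulfing cells. HtrA1 is a secreted serine protease. Quiescent stem cells of the SVZ share much of the astrocyte programme, and ribosomal protein transcripts are known to increase when such cells become activated.

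The promoters of 4 of these genes are shown because Htra1 varied with Apoe and with Mfge8 over all SVZ cells, described further on. Abca1 did not follow them. The RefSeq table for GRCm38.p6 held windows of 250 bases before to 50 bases after the start for 7 of the 9 genes. Clu and Abcg1 had no entry. Capitals mark matches on either strand to the TATA box TATAAA, the box CCAAT, the GC box GGGCGG, the nuclear factor I palindrome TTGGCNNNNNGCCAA or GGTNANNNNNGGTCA, a loose form of the direct repeat to which liver X receptors are known to bind. Among 32817 promoter windows these letters occur in 13.6%, 37.4%, 35.6%, 0.0366% and 0.207%, in that order.
Abca1 (chr4:53159846-53160145, minus strand): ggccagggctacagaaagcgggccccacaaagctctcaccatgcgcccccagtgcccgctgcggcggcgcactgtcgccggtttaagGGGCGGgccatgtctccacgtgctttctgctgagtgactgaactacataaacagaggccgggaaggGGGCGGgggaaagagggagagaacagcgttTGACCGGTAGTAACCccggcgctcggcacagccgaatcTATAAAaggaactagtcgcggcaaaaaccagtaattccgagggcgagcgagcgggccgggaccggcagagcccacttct
Apoe (chr7:19699139-19699438, minus strand): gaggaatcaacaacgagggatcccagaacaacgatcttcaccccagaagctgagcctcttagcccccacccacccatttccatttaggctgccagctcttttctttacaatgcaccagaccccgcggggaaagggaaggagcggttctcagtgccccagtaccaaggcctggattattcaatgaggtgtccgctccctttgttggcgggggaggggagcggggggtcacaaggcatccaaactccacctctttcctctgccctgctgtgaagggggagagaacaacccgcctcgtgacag
Mfge8 (chr7:79149011-79149310, minus strand): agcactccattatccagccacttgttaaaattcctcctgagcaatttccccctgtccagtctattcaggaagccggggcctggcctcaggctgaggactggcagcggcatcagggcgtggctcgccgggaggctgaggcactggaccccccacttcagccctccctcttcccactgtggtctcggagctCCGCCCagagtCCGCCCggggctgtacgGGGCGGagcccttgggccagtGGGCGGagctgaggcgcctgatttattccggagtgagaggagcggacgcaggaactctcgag
Htra1 (chr7:130935953-130936252, plus strand): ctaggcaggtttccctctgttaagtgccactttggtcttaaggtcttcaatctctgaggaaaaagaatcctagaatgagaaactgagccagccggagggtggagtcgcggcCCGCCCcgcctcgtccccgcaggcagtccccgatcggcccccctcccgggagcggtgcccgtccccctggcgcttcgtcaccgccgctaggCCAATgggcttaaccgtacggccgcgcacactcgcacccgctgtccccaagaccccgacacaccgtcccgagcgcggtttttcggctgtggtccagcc
The Abca1 window holds 1 match to the loose direct repeat, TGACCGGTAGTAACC on the opposite strand at base 184, with 2 GC boxes and 1 TATAAA. The Mfge8 window holds 4 GC boxes, and the Htra1 window holds 1 GC box and 1 CCAAT. Apoe has 3 windows in the table, and the printed one holds no match. The nuclear factor I letters were in no window of the 7 genes. A match is a string of letters and does not show binding.

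All 9 are protein-coding genes, placed here on GRCm38. On the plus strand lie Clu (chr14:65968483-65981547), Abcg1 (chr17:31057675-31117988) and Htra1 (chr7:130936111-130985660). On the minus strand lie Apoe (chr7:19696109-19699188), Apod (chr16:31296192-31314808), Abca1 (chr4:53030787-53159895), Lrp1 (chr10:127538161-127621148), Lcat (chr8:105939551-105943382) and Mfge8 (chr7:79133768-79149060). Abcg1 overlaps the ribosomal RNA gene Gm25447 on the same strand.

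As groups, the sorted cells carried markers that astrocytes and quiescent stem cells share, which do not tell these labels apart. All 12 such markers were at 1 TPM or more in at least 50% of the striatum cells and of the cortex cells. In SVZ cells 11 of 12 were, and 9 of 12 in those with 6% or more of TPM in ribosomal protein genes. Of 12 microglia markers, 11 were at 0 in every striatum and cortex cell, and P2ry12 was the exception. SVZ replicate 91 stood apart with a microglia sum of 4758 TPM, led by C1qb at 3762 TPM, and it also had 2638 TPM of the astrocyte marker Slc1a3 and 18244 TPM of Apoe. Without it, an alternative added after the data were seen, rho of Htra1 with ribosomal protein share in SVZ cells was -0.78 and 5 members stayed at -0.3 or lower. Choroid plexus markers, whose tissue is rich in lipid carriers, summed to at most 0.14 TPM in striatum cells, 0 in cortex cells and 446 TPM in SVZ cells. Ependyma markers summed to at most 786 TPM in striatum, 71.7 in cortex and 2255 TPM in SVZ cells. Oligodendrocyte lineage markers summed to at most 386, 646 and 6799 TPM in that order. SVZ replicate 76 had 3392 TPM of astrocyte and 5409 TPM of oligodendrocyte lineage markers. In the SVZ, 5 columns summed to between 66189 and 309864 instead of about 1000000, and every cell was rescaled to 1000000.

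Apoe, the main apolipoprotein of the brain, was among the most abundant transcripts in all regions. It was at 27761 TPM in the lowest, 39702 in the median and 57842 in the highest of 13 striatum cells. The 4 cortex cells had 28099, 19167, 23082 and 43920 TPM. SVZ cells ran from 154 to 96513 TPM with a median of 33809. Apoe was present in all 150 cells, and its mean ranked as the fourth highest of all genes in striatum and as the second in cortex and SVZ. The regions overlap, and the wide part is the SVZ, where 45 cells lay below the lowest striatum cell and 4 above the highest.

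Clu encodes clusterin, also called apolipoprotein J, a secreted chaperone and lipid carrier. Striatum cells had 6360 TPM at the lowest, 12203 at the median and 16594 at the highest. Cortex cells had 9904, 4444, 5668 and 13602 TPM. SVZ cells had a median of 10674 TPM but ranged from 0 to 41721. Clu was at 1 TPM or more in 94.7% of SVZ cells (exact Clopper-Pearson 95% interval 89.5 to 97.9%, which covers counting error only). The 7 SVZ cells without it all belonged to ogp, where 61 of 68 cells had it, against 65 of 65 in ogp2. Striatum levels thus sit inside the SVZ range, with 41 SVZ cells below them and 28 above.

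Apod, an apolipoprotein of the lipocalin family made by several glial and perivascular cell types, was nearly absent. It was listed at 0 in all 13 striatum cells, which allows a share of up to 24.7% by the exact interval. One of the 4 cortex cells had 1.16 TPM and the other 3 had 0. In the SVZ 3 cells reached 1 TPM, with 1.26, 1.43 and 538 TPM. The cell at 538 TPM, an ogp cell, had 17538 TPM summed over the astrocyte markers, 81.3 over 12 oligodendrocyte lineage markers, 14.1 over mural markers and 0 over fibroblast markers.

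**Figure D1:**
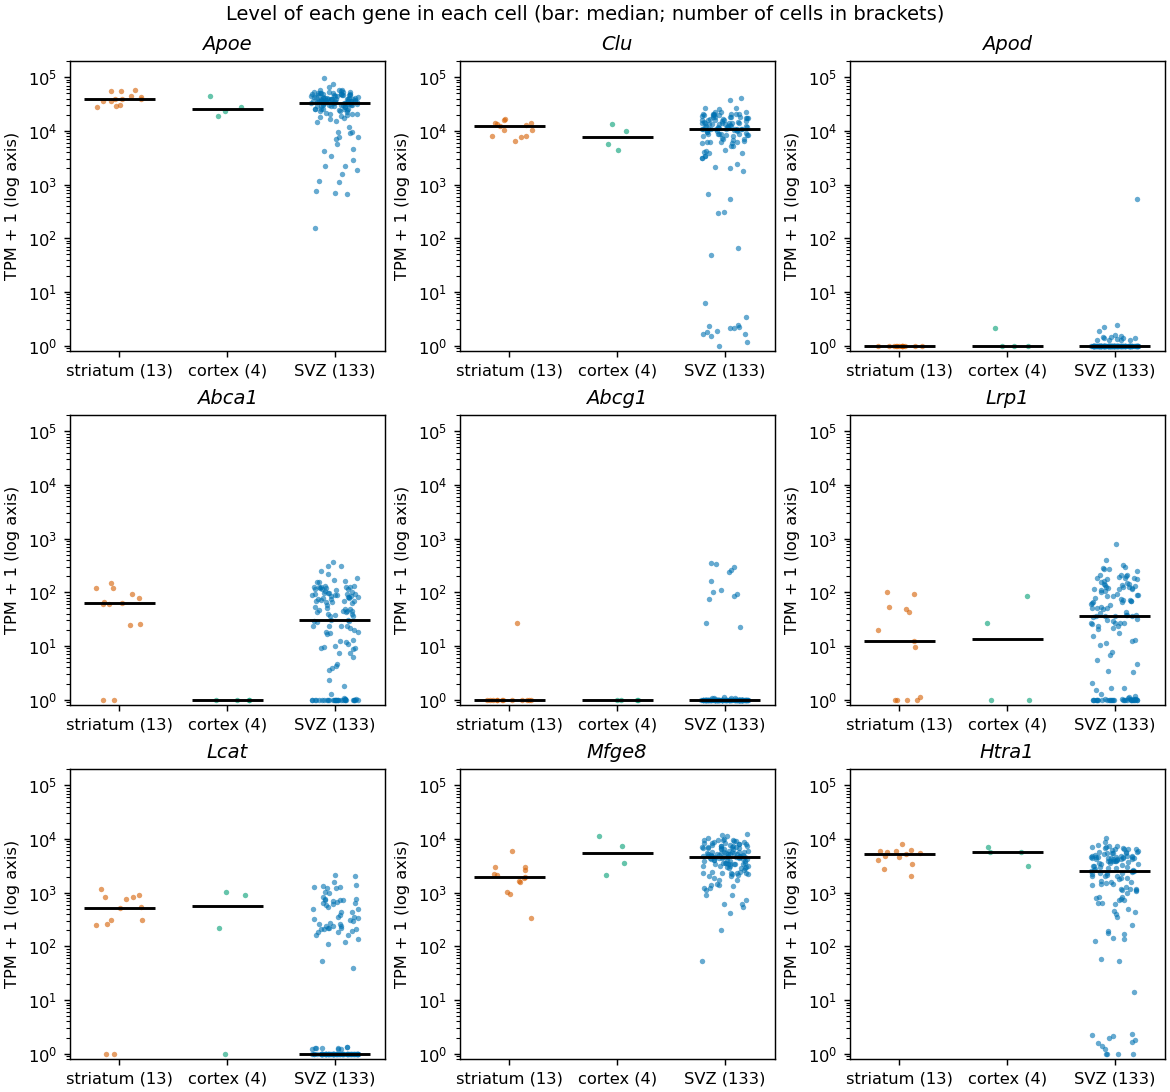
Level of each of the 9 genes in every cell, as TPM + 1 on a log axis, for striatum (13), cortex (4) and SVZ (68 ogp, 65 ogp2) cells, with horizontal bars at the medians. Apoe, Clu and Htra1 span less in striatum and cortex than in SVZ, where each has a tail of low cells, while Apod and Abcg1 sit at 0 in nearly all cells.

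Abca1, the transporter that starts particle loading, was at moderate levels. Striatum cells ran from 0 over a median of 62 to 148 TPM, with 11 of 13 cells at 1 TPM or more. All 4 cortex cells were listed at 0, which with so few cells allows a share of up to 60.2%. SVZ cells ran from 0 over 29.3 to 363 TPM, with 98 cells at 1 TPM or more (73.7%, interval 65.3 to 80.9%). Striatum and SVZ shares overlap in their intervals, and 10 SVZ cells exceeded the highest striatum cell.

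Abcg1, the transporter that moves cholesterol to particles already partly loaded, was rare. It reached 1 TPM in 1 of 13 striatum cells, at 25.4 TPM, in 0 of 4 cortex cells and in 13 SVZ cells (9.77%, interval 5.31 to 16.1%). In the SVZ cells that had it, Abcg1 ran from 22.0 to 358 TPM. The share was 7 of 68 cells in ogp and 6 of 65 in ogp2. A mean for Abcg1 therefore rests on few cells, and 11 of the 13 positive SVZ cells lay above 25.4 TPM. Among those 13, SVZ replicate 14 of ogp had a summed oligodendrocyte lineage level of 6799 TPM, the highest of all SVZ cells, and SVZ replicate 76 of ogp2 had 5409 TPM. What share of the Abcg1 signal comes with those markers was not tested.

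Lcat encodes the enzyme that esterifies cholesterol on the particle surface. Striatum cells had 0 TPM at the lowest, 509 at the median and 1186 at the highest. The 11 OGStr cells all had it, between 253 and 1186 TPM, and both OStr cells were at 0. Cortex cells had 913, 223, 0 and 1034 TPM. In SVZ cells Lcat was split, with 57 cells at 1 TPM or more (42.9%, interval 34.3 to 51.7%), a highest value of 2095 TPM and a median of 0. The striatum share was 84.6%, with an interval of 54.6 to 98.1%. Among SVZ cells under 3% ribosomal protein share it was 51.5%, with an interval of 41.3 to 61.6%. These intervals cover counting error within 1 sample per region and are no test between regions. An antisense gene, Gm16156, overlaps Lcat, and whether the counting used strand is not given in the sources used here.

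Lrp1, a large endocytic receptor for ApoE particles, went the other way in level. Striatum cells ran from 0 over 11.6 to 99.5 TPM, with 8 of 13 at 1 TPM or more. Cortex cells had 83.9, 25.4, 0 and 0 TPM. SVZ cells ran from 0 over 34.7 to 786 TPM, with 93 at 1 TPM or more (69.9%, interval 61.4 to 77.6%). The groups overlap, yet 37 SVZ cells lay above the highest striatum cell. The 2 OStr cells were at 0 for Lrp1 as they were for Lcat. The antisense gene Gm16217 overlaps Lrp1.

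Mfge8, the phosphatidylserine bridge, was present in all 150 cells. Striatum cells had 333 TPM at the lowest, 1940 at the median and 5897 at the highest. Cortex cells had 3552, 7536, 2130 and 11566 TPM. SVZ cells had 51.9, 4539 and 12439 TPM at the lowest, median and highest. Striatum held the low end, as 2 SVZ cells lay below its range and 37 above it, all 37 with a ribosomal protein share under 3%. The highest striatum value came from an OStr cell, and the 11 OGStr cells reached 3038 TPM at most.

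Htra1 was at 2037 TPM in the lowest, 5192 in the median and 8069 in the highest striatum cell. Cortex cells had 7005, 5727, 3163 and 5673 TPM. SVZ cells ran from 0 over 2558 to 10298 TPM, with 92.5% of cells at 1 TPM or more (interval 86.6 to 96.3%). The 10 SVZ cells without Htra1 were all of ogp, where 58 of 68 cells had it, against 65 of 65 in ogp2. Below the lowest striatum cell lay 57 SVZ cells and above the highest lay 2. Fgfr2 overlaps Htra1 on the opposite strand.

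**Figure D2:**
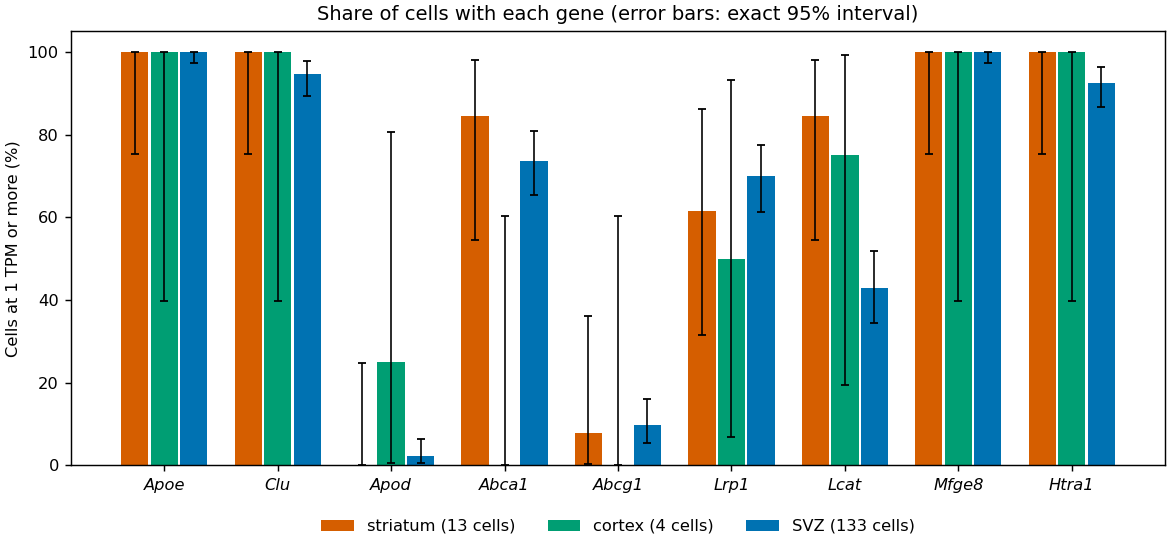
Percent of cells at 1 TPM or more for each gene in striatum (13 cells), cortex (4) and SVZ (68 ogp, 65 ogp2), as bars from 0 with exact 95% intervals. Apoe and Mfge8 are at 100% in all regions, Abcg1 and Apod are rare, and Lcat is at 84.6% of striatum and 42.9% of SVZ cells. The intervals cover counting error only and do not compare regions.

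Differences between regions were taken as log2 of (mean TPM + 1) in the first region over that in the second, which understates the change of low genes, and a gene was counted at 2-fold or more. Of all genes that averaged 10 TPM or above in at least 1 of the regions, 40.6% differed that much between striatum and SVZ. With 4 of 8 members past it, the count is near that background. One of the 4, Abcg1, reached 10 TPM only in SVZ cells. The filter could admit it only as lower, so the count rests in part on it. Lcat was higher in striatum (515 ± 368 TPM, SD, n = 13 cells) than in SVZ (246 ± 424 TPM, SD over all SVZ cells), at a log2 difference of 1.06. Another 3 members were lower in striatum, namely Mfge8 (2181 ± 1369 TPM in striatum, 4776 ± 2687 in SVZ, log2 difference -1.13), Lrp1 (28.9 ± 35.7 in striatum, 70.7 ± 102.6 in SVZ, -1.26) and Abcg1 (1.96 ± 7.05 in striatum, 16.2 ± 60.7 in SVZ, -2.54). Of all genes 12.3% were higher by 2-fold or more and 28.3% lower, and the all-gene median was -0.26.

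Apoe, Clu, Abca1 and Htra1 differed by less than 2-fold between striatum and SVZ, with log2 differences of 0.37, 0.12, 0.26 and 0.77. Apoe averaged 41039 ± 9924 TPM in striatum and 31814 ± 16858 TPM in SVZ. These calls depend on how cells are averaged. With the mean of log values, which weighs cells near 0 more, Clu stood at 1.61, Abca1 at 1.06, Htra1 at 2.19 and Lcat at 3.92, all higher in striatum. On that scale Mfge8 at -1.07 was the 1 member past 2-fold lower, with Lrp1 at -0.97 and Abcg1 at -0.32. With medians, Abca1 was at 1.06, Htra1 at 1.02, Clu at 0.19 and Abcg1 at 0.00. Set against only the 46 ogp and 55 ogp2 SVZ cells with a ribosomal protein share under 3%, the differences between means of Apoe, Clu, Abca1 and Htra1 became 0.10, -0.20, 0.16 and 0.41. In the same setting Lcat fell short of 2-fold at 0.72, while Mfge8 stood at -1.35 and Lrp1 at -1.51. There 3 of 8 members were lower and 0 higher, where 38.7% of all genes were past 2-fold (14.2% higher, 24.5% lower). Abcg1, also counted as lower, reached 10 TPM only in SVZ cells (1.96 TPM in striatum, 18.2 in SVZ cells under 3%). The filter could admit it only as lower. Against ogp2 alone Lcat was at 0.82 and Htra1 at 0.43, and against ogp alone Lcat was at 1.34 and Htra1 at 1.19. With OGStr cells only, Lcat was at 1.30, Lrp1 at -1.03 and Mfge8 at -1.35.

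Within regions the column series differed too. Of 8 members 0 were past 2-fold between ogp and ogp2, where 21.4% of all genes were (14.4% higher, 7.01% lower in ogp). Htra1 at -0.76, Clu at -0.70 and Apoe at -0.67 were the farthest below 0. The series were not balanced, as 15 of the 21 SVZ cells at 6% or more ribosomal protein share were of ogp. Among SVZ cells under 3% the ogp and ogp2 means lay closer. They were 32823 and 42946 TPM for Apoe, 11348 and 15023 for Clu, and 3069 and 4234 for Htra1. Between the 11 OGStr and 2 OStr cells, 80.7% of genes were past 2-fold (54.8% higher, 25.9% lower in OGStr), and 3 of 7 members were higher and 1 lower. Lcat and Lrp1, which are 0 in both OStr cells, and Abca1 at 1.21 were the higher ones, and Mfge8 at -1.06 the lower. The filter could admit Lcat and Lrp1 only as higher.

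Between cortex and SVZ 64.1% of genes differed by at least 2-fold, 20.7% higher and 43.4% lower in cortex, so 4 of 8 members (1 higher, 3 lower) is below the background, and 4 cells carry the cortex mean. Lcat averaged 542 ± 508 TPM in cortex (SD, n = 4 cells) and 246 ± 424 TPM in SVZ, a log2 difference of 1.14 that dropped to 0.62 without cortex replicate 4 and to 0.76 without replicate 1. Lrp1 averaged 27.3 ± 39.6 TPM in cortex and 70.7 ± 102.6 in SVZ, at -1.34, at -2.92 without cortex replicate 1 and at -0.94 without replicate 3 or 4. Abca1 and Abcg1, the other 2 counted as lower, were listed at 0 in cortex, so no fold is given. They reached 10 TPM only in SVZ cells. The filter could admit them only as lower, so the count rests in part on it. Against SVZ cells under 3% only, 3 of 8 members were lower and 0 higher, where 63.3% of genes were past 2-fold (22.6% higher, 40.8% lower). Abca1 and Abcg1 were again among the lower ones through the same filter, and Lcat was at 0.79. Against all SVZ cells Apoe, Clu, Mfge8 and Htra1 were at -0.16, -0.35, 0.38 and 0.90.

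Between striatum and cortex 67.2% of genes differed by at least 2-fold (38.3% higher, 28.9% lower in striatum), and 2 of 7 members did, 1 higher and 1 lower. Mfge8 averaged 2181 ± 1369 TPM in striatum and 6196 ± 4249 TPM in cortex, a log2 difference of -1.51 that stayed between -1.79 and -1.01 with each cortex cell left out. Abca1 averaged 65.3 ± 46.1 TPM in striatum and was listed at 0 in cortex, so the filter could admit it only as higher. Apoe at 0.52, Clu at 0.47, Lrp1 at 0.08, Lcat at -0.07 and Htra1 at -0.13 differed by less than 2-fold. The Lrp1 value rests on cortex replicate 1, without which it was 1.66. The 3 region comparisons share cells, so they are not separate lines of evidence.

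Within the SVZ, several of these genes were ordered along the ribosomal protein share. That share is the percent of a cell's TPM held by 80 cytosolic ribosomal protein genes, and it ran from 0.67% to 14.9% over SVZ cells. Spearman's rho with it was computed for all 4553 genes at 1 TPM or more in at least 30% of SVZ cells, which left out Apod and Abcg1. This coefficient is a description over cells that share libraries and pools and carries no p. Of all genes, 5.40% had a rho of -0.3 or lower and 16.7% had 0.3 or higher, with a median of 0.13. Of the 7 members measured this way, 5 were at -0.3 or lower, and the member median was -0.49.

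Htra1 had the lowest rho of all 4553 genes, at -0.79. Clu at -0.63 was the 20th lowest and Apoe at -0.62 the 22nd. Mfge8 at -0.49 was the 71st and Lcat at -0.35 the 188th. Lrp1 at -0.13 was the 648th and Abca1 at -0.08 the 860th, below the all-gene median but short of -0.3. Of the 12 astrocyte and quiescent stem cell markers 11 were also at -0.3 or lower, from -0.70 to -0.19 with a median of -0.50, so the 5 members moved with that marker list, and their part in it was not tested.

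**Figure D3:**
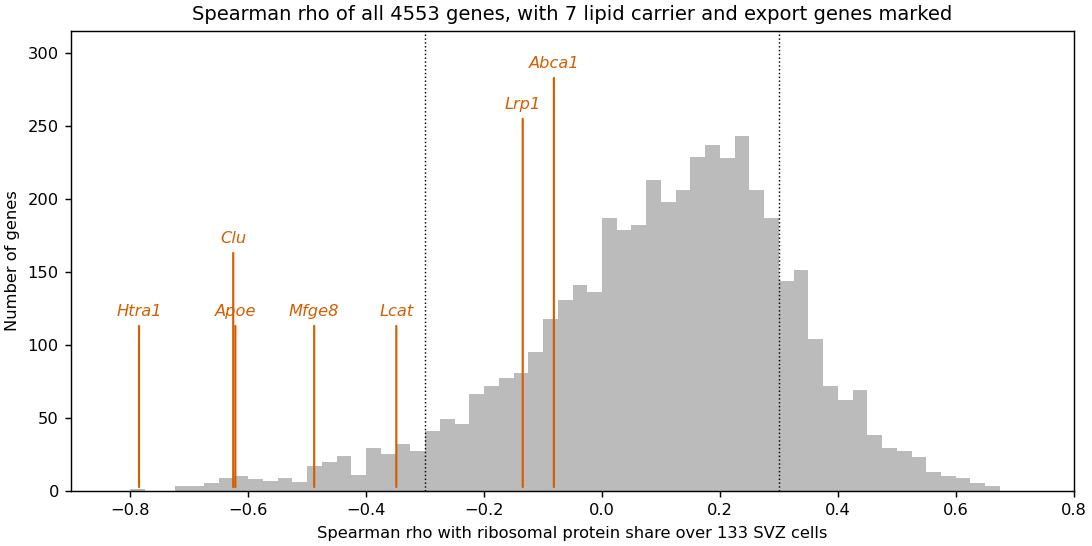
Histogram of Spearman's rho with ribosomal protein share over all SVZ cells for 4553 genes, with the 7 members measured marked by lines and dotted lines at -0.3 and 0.3. Htra1 stands at the far left at -0.79, Clu and Apoe lie together near -0.6, and Lrp1 and Abca1 lie between the dotted lines, left of the all-gene median of 0.13.

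In both column series Htra1 had the lowest value of the 7 members, and the 5 members stayed at -0.3 or lower. The share of all genes at that rho was computed over all SVZ cells only, not within a series. Htra1 had a rho of -0.81 in ogp and -0.69 in ogp2, Clu -0.74 in ogp and -0.45 in ogp2, Apoe -0.67 and -0.45, and Mfge8 -0.56 and -0.39. Lcat had -0.33 in ogp and -0.34 in ogp2. Abca1 differed in sign, with -0.27 in ogp and 0.09 in ogp2. Since TPM is a share of one total, the values were also computed with ribosomal protein genes left out of that total, which gave -0.78 for Htra1, -0.62 for Clu, -0.61 for Apoe and -0.46 for Mfge8. Again 5 of 7 members were at -0.3 or lower and 0 at 0.3 or higher, where 5.29% and 18.5% of all genes were.

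Ribosomal protein share itself went with the number of genes detected in a cell, at a rho of 0.64. With rank of gene number held fixed, rho was -0.68 for Htra1, -0.46 for Clu, -0.38 for Apoe and -0.30 for Mfge8 and for Lcat. The relation was weaker inside narrower ranges. In the SVZ cells under 6% it was -0.66 for Htra1, -0.39 for Clu and -0.40 for Apoe, and in those under 3% it was -0.55, -0.27 and -0.25. Mfge8 was at -0.30 and -0.14 in those ranges and Lcat at -0.22 and -0.16, so within the cells under 3% Htra1 alone of the 7 stayed at -0.3 or lower.

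By classes of ribosomal protein share, 46 ogp and 55 ogp2 cells were under 3%, 11 cells from 3% to under 6%, and 21 at 6% or more, with 10 cells within 0.5 percentage points of the lower limit and 4 of the upper. The medians of Apoe were 36798, 18244 and 3481 TPM in that order. Those of Clu were 12074, 3127 and 5.22 TPM, and those of Htra1 were 3708, 463 and 1.31 TPM. Apoe was in all 21 ribosome-rich cells, at 154 TPM or more. The column series differed in this class. The 15 ribosome-rich ogp cells had medians of 1.2 TPM for Clu and 0.78 TPM for Htra1, where the 6 of ogp2 had 2067 and 374 TPM and were all positive for both. For Apoe the medians were 2187 TPM in ogp and 16496 TPM in ogp2.

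Mfge8 had medians of 5073, 2093 and 2206 TPM over the 3 classes, so it was lower above 3% with no further step at 6%. Lcat was present in 51.5%, 27.3% and 9.52% of cells, the last being 2 of 21. Abca1 had medians of 35.6, 50.3 and 17.6 TPM and Lrp1 had 41.5, 34.7 and 6.89 TPM. The share of cells with Abca1 was 72.3%, 81.8% and 76.2%, so Abca1 stayed detectable in ribosome-rich cells.

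**Figure D4:**
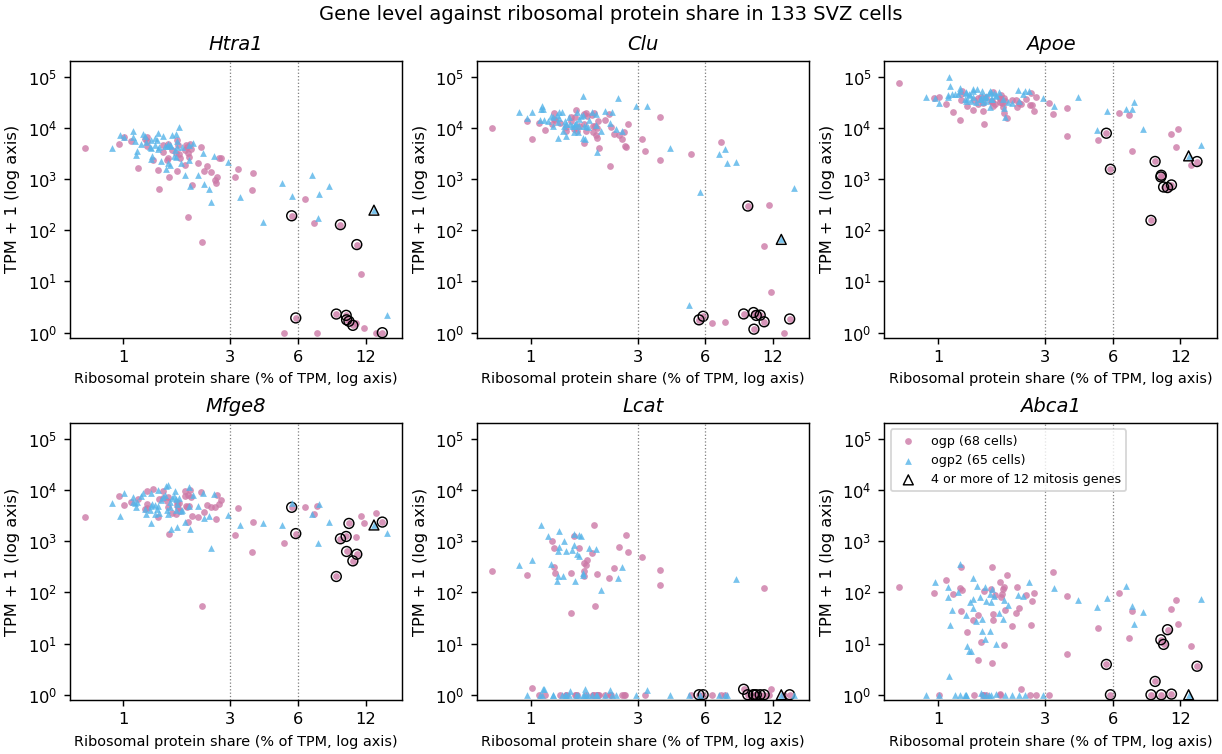
TPM + 1 of 6 genes against ribosomal protein share in all SVZ cells, both on log axes, with circles for ogp, triangles for ogp2, black outlines for cells with 4 or more of 12 mitosis genes and dotted lines at 3% and 6%. Htra1 and Clu are near 0 in many ogp cells above 6% and lie higher in the 6 ogp2 cells there, Apoe and Mfge8 drop less, and Abca1 shows little relation (rho -0.08).

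In means, cells at 6% or more against cells under 3% showed 7 of 8 members at least 2-fold lower and 0 higher, where 49.8% of all genes were past 2-fold (26.8% higher, 23.0% lower). The member median was -2.41 and the all-gene median 0.16. Htra1 averaged 171 ± 309 TPM in the 21 ribosome-rich cells and 3703 ± 2097 TPM in the cells under 3%, a log2 difference of -4.43. Lcat averaged 14.5 ± 46.5 TPM in ribosome-rich and 312 ± 464 TPM in low cells (-4.34). Clu averaged 840 ± 1511 TPM in ribosome-rich and 13349 ± 6437 TPM in low cells (-3.99). Apoe kept the highest level, at 8037 ± 9451 TPM in ribosome-rich and 38336 ± 12567 TPM in low cells (-2.25). Lrp1 and Mfge8 were at -1.92 and -1.31. Abcg1 was at -2.56, from 2 ribosome-rich and 9 low cells at 1 TPM or more, so its mean rests on few cells. It reached 10 TPM only in low cells (18.2 against 2.26 TPM), so the filter could admit it only as lower. Abca1, at -0.87, was the member that stayed within 2-fold. These sizes depend on where the classes are divided. Between the highest and the lowest of 3 classes of near equal size, 5 of 8 members were at least 2-fold lower, with Htra1 at -2.84, Lcat at -1.81, Clu at -1.41, Apoe at -1.19 and Mfge8 at -1.01. Lrp1 at -0.38 was then within 2-fold, and Abcg1 turned to 2.36, from 7 cells in the highest class and 2 in the lowest. No share of all genes past 2-fold was computed for these 3 classes, so the 5 of 8 has no background.

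The class from 3% to under 6% lay between. Against cells under 3% it showed 5 of 8 members at least 2-fold lower and 0 higher, where 18.9% of all genes were lower and 29.2% higher. Htra1 was at -2.61, Lcat at -1.91, Clu at -1.25, and Apoe and Mfge8 both at -1.15. Lrp1 at -0.89, Abca1 at 0.08 and Abcg1 at 0.42 were within 2-fold.

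The ribosome-rich cells were themselves of 2 kinds. Of the 21, 9 had at least 4 of 12 mitosis genes at 1 TPM or more, 8 of them from ogp, and 12 did not. Apoe was at 154, 1097 and 2824 TPM in the lowest, median and highest mitotic cell and at 1869, 9603 and 32295 TPM in those without. The ranges overlap only between 1869 and 2824 TPM. Clu had medians of 1.2 TPM in mitotic and 481 TPM in non-mitotic cells, Htra1 of 1.18 and 75.7 TPM, and Mfge8 of 1108 and 3250 TPM. Abca1 was at 1 TPM or more in 4 of 9 mitotic cells and in 12 of 12 others, with medians of 0.82 and 44.3 TPM.

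All 7 members with at least 10 TPM in either kind were at least 2-fold lower in mitotic cells, where 43.7% of all genes were past 2-fold (19.4% higher, 24.3% lower). Their median log2 difference was -3.26, against -0.06 over all genes. Abca1, Lrp1 and Lcat reached 10 TPM only in non-mitotic cells, with mitotic means of 4.50, 5.55 and 0.03 TPM. The filter could admit them only as lower, so the count and the median rest in part on it. Lcat was at 1 TPM or more in 2 of 12 non-mitotic cells. Apoe, Clu, Mfge8 and Htra1 had at least 10 TPM in both kinds, at -3.32, -5.11, -1.35 and -2.45. Mitotic cells had 6929 genes at the median and a ribosomal protein share of 10.1%. The others had 4948.5 genes and 7.83%, with 7 cells of ogp and 5 of ogp2. Cycle state, gene number, ribosomal share and column series therefore cannot be told apart here. Without any cell of 4 or more mitosis genes, rho with ribosomal share was -0.73 for Htra1, -0.52 for Clu, -0.52 for Apoe, -0.38 for Mfge8 and 0.03 for Abca1.

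The members also varied with each other. Over all SVZ cells rho was 0.66 between Apoe and Htra1, 0.65 between Clu and Htra1, and 0.59 between Apoe and Clu. Mfge8 and Htra1 were at 0.52 and Lcat and Htra1 at 0.40. Abca1 stayed between -0.08 and 0.15 with every other member. Within the cells under 3% the same pairs were at 0.36, 0.36, 0.25, 0.19 and 0.23. Abca1 and Clu were at -0.30 in those cells. Apoe and Mfge8 were at 0.38 over all SVZ cells, 0.57 in ogp, 0.15 in ogp2 and -0.03 in cells under 3%.

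The genes whose levels were most like each member were ranked among 1787 genes by the mean of rho within ogp and within ogp2. For Htra1 they were Gpr37l1 (0.78), Prnp (0.72), the gap junction gene Gja1 (0.70), the amino acid transporter Slc7a10 (0.69) and the sodium pump subunit Atp1b2 (0.68). For Clu they were Tspan7 (0.67), Cst3, which encodes the protease inhibitor cystatin C (0.67), Atp1b2 (0.64), Gpr37l1 (0.63) and Gpm6a (0.61). For Apoe they were Plpp3 (0.63), Itm2b (0.63), Sdc4 (0.63), Prnp (0.61) and Gja1 (0.60). For Mfge8 they included the glutamate transporter Slc1a3 (0.57), Atp1b2 (0.57), Gpr37l1 (0.56) and Plpp3 (0.56). Abca1 and Lrp1 had no close partner, with best values of 0.37 for Macf1 and 0.40 for Sema4a. Genes that share this pattern include markers used to sort the cells, as Slc1a3 encodes GLAST.

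Another 90 genes of these routes were measured. Striatum and SVZ could be compared for 46 of them, of which 4 were past 2-fold upward in striatum and 10 downward. Of all genes 12.3% were higher and 28.3% lower. The median was -0.26, equal to that of all genes. Of 45 in cortex or SVZ, 9 were higher and 14 lower in cortex, where 20.7% of all genes were higher and 43.4% lower. Of 48 in the SVZ classes, 2 were higher and 27 lower in cells at 6% or more than in cells under 3%, at a median of -1.22, where 26.8% of all genes were higher and 23.0% lower at a median of 0.16. The counts by role that follow are to be read against those shares. Of 25 with a rho, 4 were at -0.3 or lower (Serpine2 -0.61, Srebf1 -0.48, Mertk -0.39 and Npc1 -0.32) and 1 was at 0.3 or higher (Nfia 0.33). Of all genes 5.40% were at -0.3 or lower and 16.7% at 0.3 or higher. The median was -0.08 for the 25 and 0.13 for all genes.

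Other apolipoproteins were sparse. Apoc1 averaged 14.01 TPM in striatum, was listed at 0 in cortex and averaged 40.1 TPM in SVZ, where 20 cells had it. It was higher in ribosome-rich cells (78.97 TPM, 3 of 21 cells) than in low cells (34.3 TPM, 15 cells), so its mean rests on few cells. Apoc3 was at or above 1 TPM in 6 SVZ cells, all under 3%.

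Among receptors and their chaperones, Lrpap1, the chaperone of the LRP family, was widespread. It averaged 282 TPM in striatum, 359 in cortex and 239 in SVZ. The lysosomal receptor Scarb2 averaged 31.8, 164 and 62.1 TPM in that order. In the SVZ classes 5 of 9 receptor genes were at least 2-fold lower in ribosome-rich cells and 1, Scarb1, was higher, at 16.6 against 2.27 TPM.

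Of 8 other lipid transporters, 6 were at least 2-fold lower in ribosome-rich than in low SVZ cells and none was higher. Abcg4, which like Abcg1 moves sterols, averaged 57.6 TPM in striatum, 46.7 in cortex and 19.8 in SVZ. Abca5 averaged 7.24 TPM in striatum, 0 in cortex and 21.1 in SVZ. The peroxisomal transporter Abcd3 averaged 17.9, 53.6 and 101.8 TPM and Abcd2 48.1, 40.3 and 28.8 TPM in these regions.

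Of the regulators, Srebf1, a driver of lipid synthesis and a target of liver X receptors, had the highest mean in SVZ. It averaged 342 TPM in striatum, 193 in cortex and 335 in SVZ, and 95.3 TPM in ribosome-rich against 403 TPM in low SVZ cells. Srebf2, the regulator of cholesterol synthesis, averaged 19.4, 90.6 and 97.2 TPM in the 3 regions. Rxrb, a partner of liver X receptors, averaged 39.4, 87.6 and 14.5 TPM, and the receptor Nr1h2 averaged 45.9, 52.1 and 60.1 TPM. Of 7 regulators compared between the SVZ classes, 2 were at least 2-fold lower in ribosome-rich cells.

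Of 8 lipid transfer genes, 0 were past 2-fold higher and 2 lower in striatum than in SVZ. Pltp, the phospholipid transfer protein, averaged 48 TPM in striatum, was listed at 0 in all 4 cortex cells and averaged 103.9 TPM in SVZ. Tspo, an outer mitochondrial membrane protein, averaged 31.97, 54.5 and 172 TPM, and Npc2, which carries cholesterol in lysosomes, 105.5, 56.8 and 137 TPM. In ribosome-rich cells 5 of 8 genes of this group were at least 2-fold lower.

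Engulfment receptors that recognise phosphatidylserine through bridging proteins were present alongside Mfge8. Mertk averaged 242 TPM in striatum, 166 in cortex and 141 in SVZ, and 17.4 TPM in ribosome-rich against 179 TPM in low SVZ cells. Axl averaged 70.4, 31.7 and 95.1 TPM in the 3 regions. Of 10 engulfment genes, 5 were at least 2-fold lower in ribosome-rich cells and none was higher.

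Among HtrA proteases and serpins, Serpine2, a secreted inhibitor of serine proteases, averaged 917 TPM in striatum, 774 in cortex and 1227 in SVZ. It was at 245 TPM in ribosome-rich against 1438 TPM in low SVZ cells. The mitochondrial protease Htra2 averaged 56.8, 131.7 and 46.9 TPM in the regions and hardly differed by class, at 44.3 and 46.7 TPM.

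**Figure D5:**
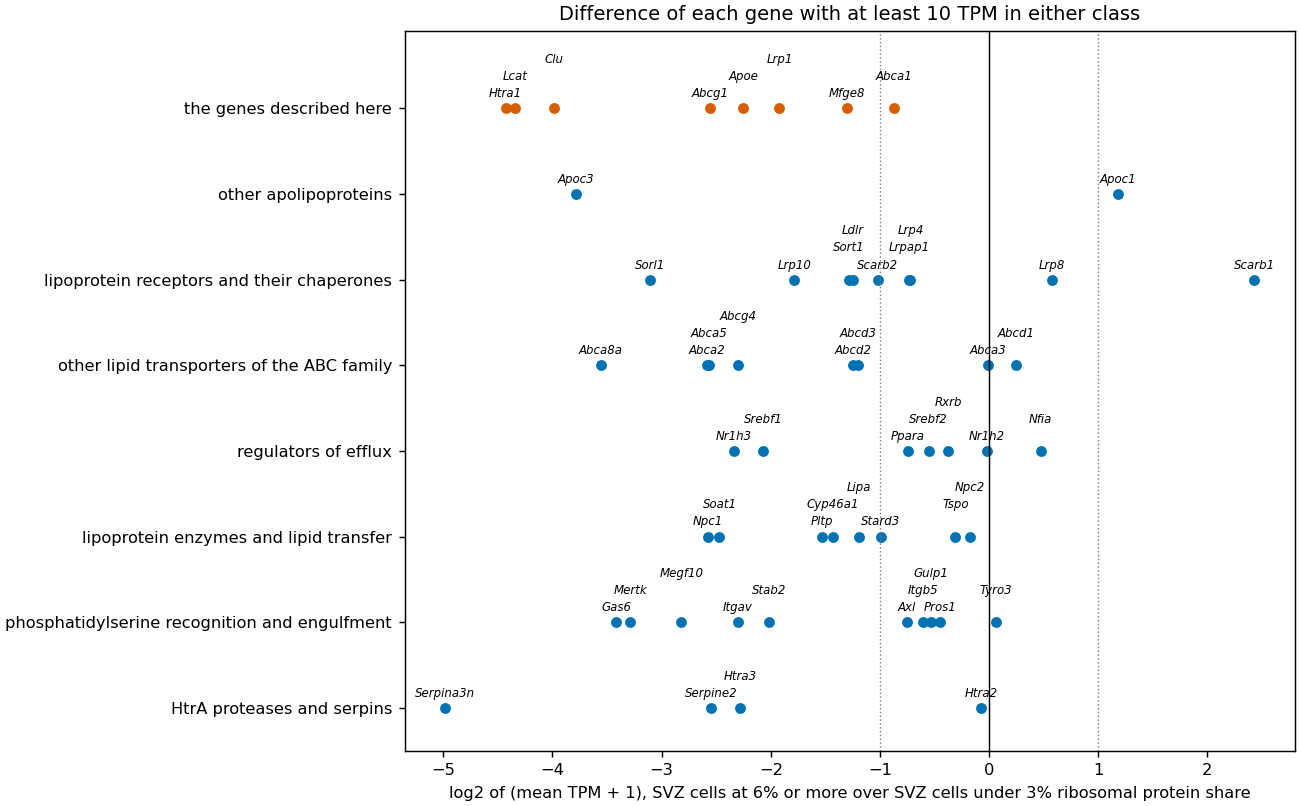
Log2 of (mean TPM + 1) in the 21 SVZ cells at 6% or more over the SVZ cells under 3% ribosomal protein share, 1 point per gene with at least 10 TPM in either class, in rows by role, with dotted lines at 2-fold. The members fill the left side from -4.43 to -0.87, and 2 of the other genes, Scarb1 and Apoc1, lie beyond 2-fold on the right.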

How the data were processed

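Alignment and quantification tools listed in the submitters' processing notes are RSEM 1.2.18 and STAR 2.4.0g1, with mm10 as the build. No annotation, filter or use of strand is given in the sources used here. The deposited values are TPM per gene and cell, read as such from their decimals and column sums. They keep no read counts, so depth per cell is unknown and cells could not be thinned. Of 43309 identifiers 42425 had a symbol and 42405 symbols were kept. The 18 population libraries are not analysed here.

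Each cell was rescaled to 1000000 TPM. Values per gene are the mean, SD, median and range over cells, the share of cells at 1 TPM or more, log2 of (mean TPM + 1) ratios for genes averaging 10 TPM or above in at least 1 of the groups, and Spearman's rho with the share of 80 ribosomal protein genes (Python 3.11.15, numpy 2.4.6, pandas 2.3.3, scipy 1.17.1). The procedures were tested on simulated data. With 1 pooled sample per region no p-value was computed. No 2 cells had identical columns. Positions are those of GENCODE on GRCm38 and promoters those of RefSeq on GRCm38.p6.

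The members, lists, classes and comparisons were chosen with earlier results of these data known. Pathway genes were named as the 2 of each list with the highest SVZ mean and up to 3 with the largest difference, of 2-fold or more in the same direction in striatum and cortex over SVZ and with 20 TPM or more in the higher group. Scarb1, Nr1h2, Nfia and Npc1 fall outside that rule and were chosen after their values were seen. Partner genes were the 5 with the highest mean within-series rho. One partner of Mfge8 is not reported here. Alternatives covered pseudocount, filter, averaging, column series, scaling, cell subsets and each cortex cell left out.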

Additional observations from a re-analysis of the deposited data

Results flagged for a closer look

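Apod in the cortex cells drew attention because 1 of the 4 cells stood far from the others. Cortex replicate 1 had 1.16 TPM and the remaining 3 cells had 0, so the gap to the nearest cell was the whole range. The value is close to the detection limit of 1 TPM, and with 1 positive cell no further comparison was possible. For a gene at 0 in all other cells, any 1 positive cell gives such a gap.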

How the results depend on the processing

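Of the values recomputed under the alternatives, 587 stayed within set limits, 70 moved beyond them and 3 changed sign. The limits were 1.5-fold for a difference, the exact interval for a share, 0.2 for a rho and 1.5 times for a count. A change of sign was counted only where the main value was at 2-fold or more, or at 0.3 or more in size of rho. Sign changes of smaller values, such as rho of Abca1 with ribosomal share in ogp2, were not counted as such. The cause of these shifts was not tested. Apod in cortex over SVZ turned to 0.14 with means of log values and to 0.21 against ogp2 cells only, both near the detection limit. Abcg1 in the highest over the lowest ribosomal class turned to 2.36 when SVZ cells were divided by rank of ribosomal share into 3 equal classes, and it rests on few positive cells. The number of members with a rho of -0.3 or lower was 5 over all SVZ cells, 3 in cells under 6% and 1 in cells under 3%. The last range was chosen after the data were seen. No share of all genes was computed within these 2 ranges. The number of members past 2-fold in cortex over SVZ, 4 with all cells, ran from 2 to 4 with each cortex cell left out, and that in striatum over cortex, 2 with all cells, ran from 2 to 3. Pathway genes past 2-fold in striatum over SVZ numbered 14 with a pseudocount of 1 and 8 with 10. Scaling by the median ratio put Lcat in cortex over SVZ at 0.80, below 2-fold. No paired analysis was possible because the replicate numbers only name cells and no cell is tied to an animal. TPM hold no counts, so no limit from depth can be given for genes listed at 0.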
